A study of Mus musculus with 2 samples.

Results

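The genes described here are the molecular chaperones, their cochaperones and the factors that fold myosin, a set of 49 genes taken by gene name from the gene annotation of the deposited long-read tables. They were 49 of the 15622 annotated genes with a read in gastrocnemius, a calf muscle. The study has 1 group of 2 libraries, replicate 2 and replicate 1, with no treatment or second genotype. Each was made from 2 µg of total RNA of the whole gastrocnemius of a male B6CASTF1/J mouse (an F1 hybrid strain) at 25 days of age, so the levels are those of a mixed tissue, in which fewer cells of a type and less RNA per cell cannot be told apart. The labels name a different animal for each library but give the same donor record, and the spread below is that between these 2 libraries. Reads in annotated genes, spike-ins left out, numbered 1549606 in replicate 2 and 1215785 in replicate 1. Levels are given as CPM, reads per 1000000 of these. A count of 3 reads is 1.94 CPM in replicate 2 and 2.47 CPM in replicate 1. CPM is not divided by length. Levels of different genes are compared as CPM, as CPM per kb of the main annotated transcript, or both. Which of these is nearer to the number of molecules was not tested.

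Chaperones bind unfolded or partly folded proteins and let them reach their native shape. The Hsp70 proteins bind short exposed stretches of a client, J-domain proteins deliver clients and trigger ATP hydrolysis by Hsp70, and the Hsp90 machine takes over late folding steps with a set of cochaperones. The ring-shaped chaperonin CCT folds actin and tubulin. In striated muscle the motor domain of myosin needs a dedicated route, in which Unc45b works with Hsp90 and Smyd1, a SET and MYND domain protein of striated muscle, is required for sarcomere assembly. Mitochondria and the endoplasmic reticulum (ER) hold chaperones of their own.

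The sequences that bear on these genes are of 3 kinds. First come promoter elements that several members share, from RefSeq (assembly GRCm38.p6), for which 42 of the 49 members were matched by symbol with 56 promoters of 300 bases (250 before the start site and 50 after). The heat shock element of 3 units was searched as GAANNTTCNNGAA and TTCNNGAANNTTC. It occurred in 198 of all 32851 promoters (0.603%) and in those of Hspe1, Hspd1, Dnajb6 and Hsph1. Hspe1 (mitochondrial Hsp10) and Hspd1 (mitochondrial Hsp60) are neighbours on opposite strands with annotated start sites 95 or 216 nt apart. The Hspd1 start site 95 nt away lies inside Hspe1, so there the 5′ ends overlap. From the one 216 nt away the genes diverge. With the Hspd1 start site 216 nt away the promoters overlap by 285 nt, a stretch that holds the match. With the other Hspd1 start site they overlap by 4 nt, without the match. The Hspe1 promoter (chr1:55087898-55088197, plus strand) is shown with 2 overlapping matches in capitals.
Hspe1 promoter: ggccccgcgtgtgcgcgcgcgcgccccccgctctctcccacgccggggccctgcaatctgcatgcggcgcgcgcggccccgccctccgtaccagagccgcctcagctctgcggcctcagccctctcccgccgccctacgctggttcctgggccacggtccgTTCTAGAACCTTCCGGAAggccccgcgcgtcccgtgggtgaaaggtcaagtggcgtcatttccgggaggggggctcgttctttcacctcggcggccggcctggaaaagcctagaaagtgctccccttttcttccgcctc
A window of 53 bases upstream of Dnajb6 (chr5:29735832-29735884, plus strand) hold a single match.
Dnajb6: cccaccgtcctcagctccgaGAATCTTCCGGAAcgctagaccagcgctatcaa

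The ER stress element, CCAAT and CCACG separated by 9 bases, was searched on both strands and was found in 39 of the 32851 promoters (0.119%). It was present in 4 members, all of them ER chaperones, and Hsp90b1 had 2 matches. Windows of 59 bases show it in capitals, as read on the strand of the gene: Hspa5 at chr2:34772005-34772063 (plus), Calr at chr8:84847055-84847113 (minus), Canx at chr11:50325780-50325838 (minus), and Hsp90b1 at chr10:86705618-86705676 and chr10:86705513-86705571 (minus).
Hspa5: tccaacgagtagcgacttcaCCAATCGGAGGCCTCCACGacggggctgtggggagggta
Calr: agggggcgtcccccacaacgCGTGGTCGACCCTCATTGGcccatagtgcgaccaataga
Canx: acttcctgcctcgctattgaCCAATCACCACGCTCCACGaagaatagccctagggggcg
Hsp90b1, farther match: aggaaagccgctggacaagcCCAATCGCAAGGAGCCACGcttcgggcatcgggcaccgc
Hsp90b1, nearer match: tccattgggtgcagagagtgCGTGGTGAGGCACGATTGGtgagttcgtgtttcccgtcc
A match is a string of letters, not a measured binding site. The E-box core CAGCTG was present in 16.3% of all promoters and in 9 of the 56 member promoters. These belong to 7 of the 42 matched members: Calr, Dnajb1, Dnajb2, Dnajb5, Hspa12a, Hsph1 and Pdia3.

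The second kind is a pair of short coding exons that are present in some reads of a gene and skipped in others. They are exon 5 of Smyd1-201 (39 nt, 13 codons, chr6:71235343-71235381, minus strand, GENCODE M21 on mm10) and exon 11 of Hsf1-205 (66 nt, 22 codons, chr15:76500131-76500196, plus strand). The exon is in capitals and 15 bases of each neighbouring exon in lower case.
Smyd1-201: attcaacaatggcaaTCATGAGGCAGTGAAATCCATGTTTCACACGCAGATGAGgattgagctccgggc
Hsf1-205: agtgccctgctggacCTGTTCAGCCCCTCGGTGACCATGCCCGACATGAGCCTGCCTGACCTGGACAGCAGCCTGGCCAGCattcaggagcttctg

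The third is the pair of Hspa8, the constitutive cytosolic Hsp70, and Gm15459, a processed pseudogene on chromosome 5 (chr5:5781615-5783555, minus strand). Over 1941 aligned nt the pseudogene differed from Hspa8-201 at 5 bases, written with the base of Hspa8-201 first and positions counted from 1 at the 5′ end of that transcript: G484A, C784T, C919T, G1592A and C1810T. The 31 bases around the first of these are shown, with the differing base in capitals.
Hspa8-201: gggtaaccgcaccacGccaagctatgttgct
Gm15459: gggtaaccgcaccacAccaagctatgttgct

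All 49 genes were detected, and 47 had the 10 or more reads over both libraries needed for a test. Together they held 4828 CPM in replicate 2 and 6180 CPM in replicate 1 (5504 ± 956, SD, n = 2). By summed CPM, the largest role groups were the CCT chaperonin, with 858 in replicate 2 and 994 in replicate 1, the cytosolic Hsp70 and Hsp110 proteins, with 745 and 952 in the same order, and the cochaperones of Hsp90 and Hsp70, with 785 and 784. Per kb of transcript Hspa8 ranked first of the 49 at 313 ± 40.0 CPM per kb and Hsp90ab1, the constitutive cytosolic Hsp90, second at 221 ± 84.6. Bag1 (168 ± 35.2), Hsbp1 (155 ± 65.9) and Hspe1 (145 ± 88.9) followed, and these 3 did not differ beyond their spread. By mean CPM without length, Hspa8 and Hsp90ab1 also ranked 1 and 2, while Hspa9 ranked 3, Bag1 4, Hsbp1 8 and Hspe1 20. The lowest of the 49 per kb were Hspa12a, an atypical Hsp70, and the stress-inducible Hspa1b.

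**Figure D1:**
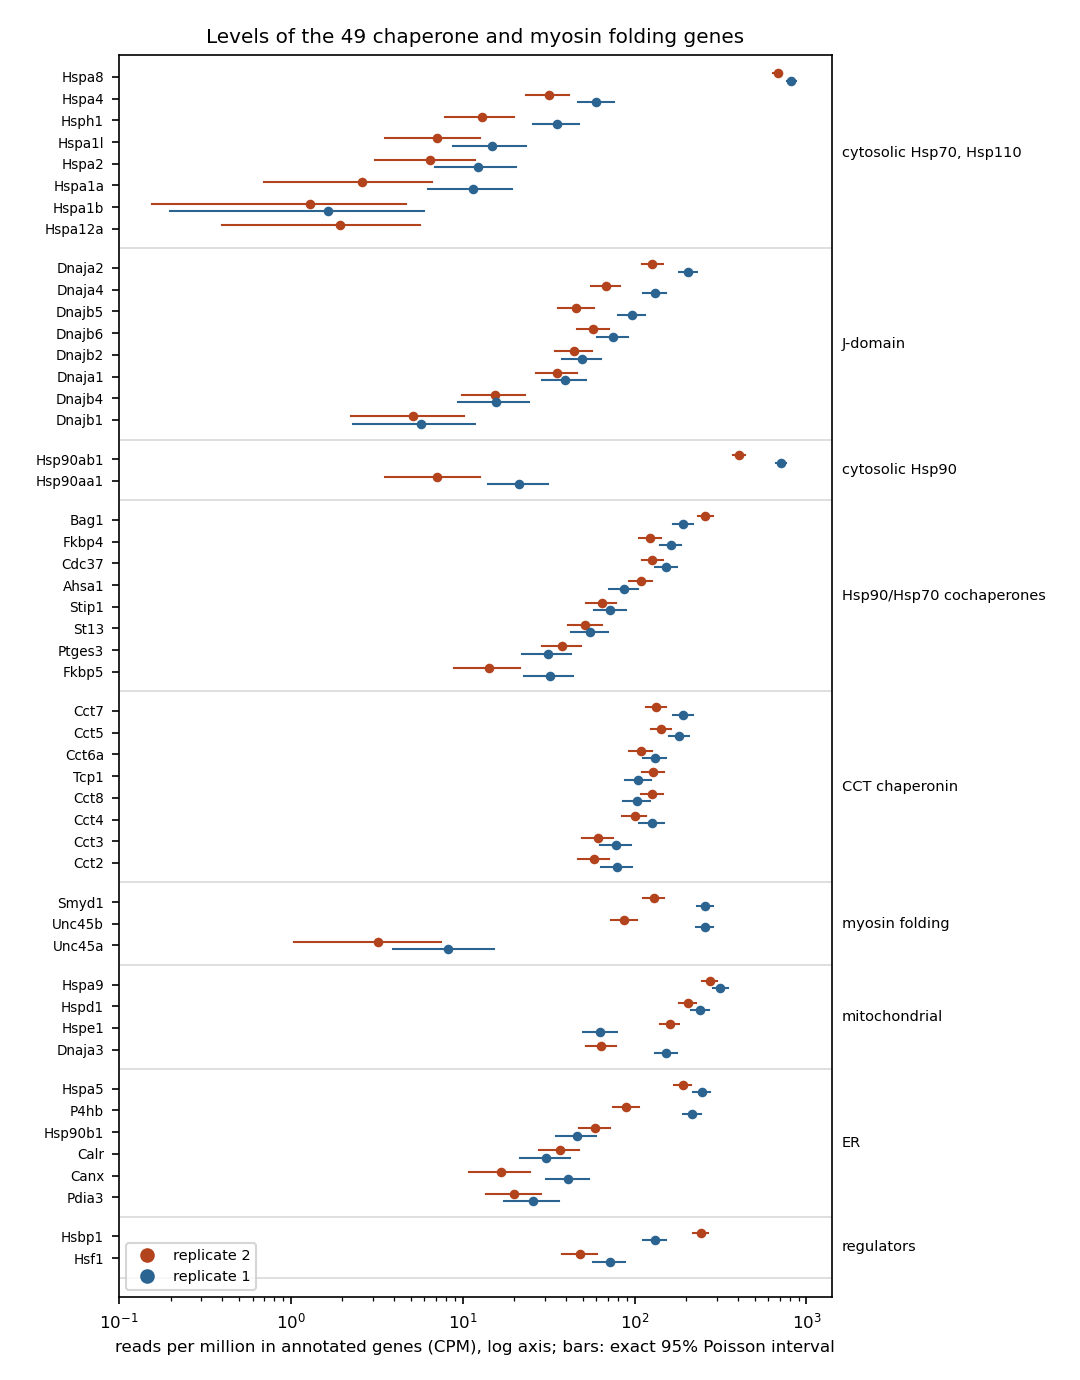
Levels of the 49 genes in CPM on a log axis, grouped by role, with replicate 2 above replicate 1 on each line and exact 95% Poisson intervals of the reads as bars (counting error only). Hspa8 and Hsp90ab1 lie at the right in both libraries; the value of Hspa12a in replicate 1, which was 0, is not drawn.

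The 2 libraries were compared gene by gene with a two-sided Fisher's exact test of reads (Benjamini-Hochberg adjustment over all 8692 genes with 10 or more reads, threshold 0.05). This test covers counting error between these libraries, which differ in no labelled condition. Of the 47 members tested, 3 were higher in replicate 2, 20 were lower and 24 did not pass; over all genes tested, 17.0% were higher and 26.3% lower. The median log2 ratio of CPM + 1, replicate 2 over replicate 1, was -0.35 for the members and -0.27 for all genes, and 36 of the 47 members (76.6%) lay within 2-fold, against 60.0% of all genes. TMM scaling shifts the members' log2 ratios up by 0.24 to 0.29 and brings the median of all genes to -0.02. With it 7 members were higher and 13 lower, where 1953 of the 8692 genes were higher and 1600 lower. The sign of the ratio turned from negative to positive in 11 members with TMM, and of these only Hspa8 had passed the test. Relative to the median of all genes, 27 members lay below and 20 above. With an assumed biological coefficient of variation of 0.2 in edgeR's exact test, 4 members passed: Hspe1 higher, and Unc45b, P4hb and Dnaja3 lower. At this setting 520 of the 8692 genes were higher and 825 lower.

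Transcript length moved with this ratio. Of the 4 members whose main transcript is under 1500 nt, 3 were higher and 0 lower, with a median log2 ratio of 0.66. Of all 1955 genes of that length, 927 were higher and 69 lower, with a median of 0.75. Of the 25 members of 2500 nt or more, 0 were higher and 15 lower, with a median of -0.90. Of all 4177 genes of that length, 210 were higher and 1812 lower, with a median also of -0.90. Across genes, which are not independent replicates, Spearman's rho between length and log2 ratio was -0.57 for the 47 members and -0.59 for 8207 genes. The part of length in the result of any single gene was not tested.

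**Figure D2:**
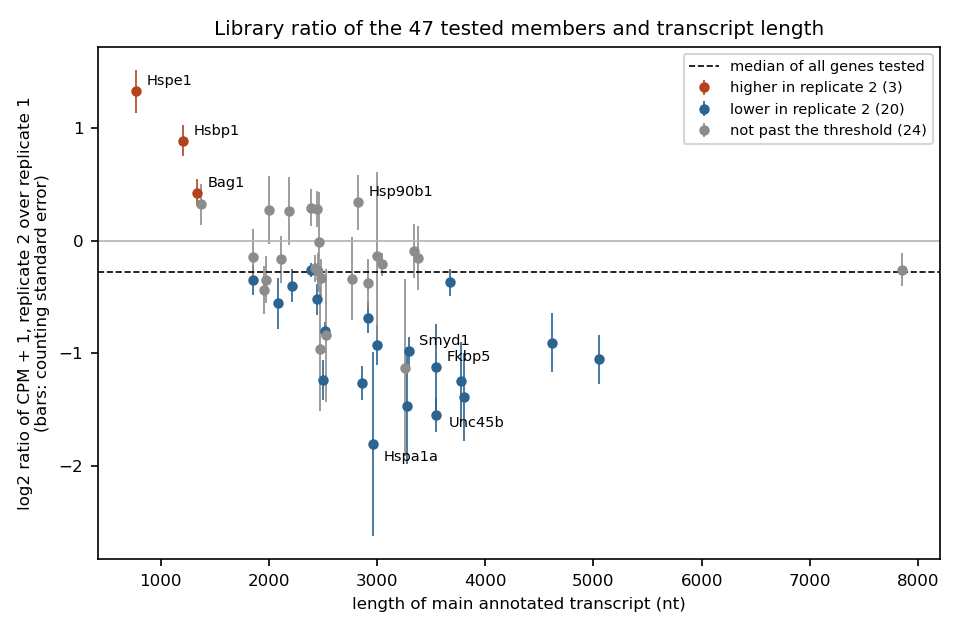
Log2 ratio of CPM + 1, replicate 2 over replicate 1, against the length in nt of the main annotated transcript for the 47 tested members, with counting standard errors as bars and colours for the 3 outcomes of the exact test. The 3 members higher in replicate 2 (Hspe1, Hsbp1 and Bag1) are among the 4 tested members with the shortest main transcript, and the dashed line is the median of all genes tested, -0.27.

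Replicate 2 also held more reads that cover a gene in part. Among members, 70.3% of reads in replicate 2 and 86.3% in replicate 1 were on annotated transcripts. Incomplete splice matches (reads whose splice junctions are a part of those of an annotated transcript) made up 15.6% in replicate 2 and 6.28% in replicate 1. Genomic reads (those that match no splice pattern of the gene) made up 9.58% in replicate 2 and 1.86% in replicate 1. Over all genes the same 3 shares were 70.6%, 15.6% and 6.86% in replicate 2, and 65.8%, 9.28% and 2.30% in replicate 1. Without these 2 partial classes 4 members were higher and 23 lower, where 17.2% of the 7351 genes tested were higher and 31.2% lower, and the members' median log2 ratio was -0.58 (all genes -0.40). The shares differed between role groups: genomic reads were 37.5% of the reads of the myosin folding group in replicate 2 and 7.72% in replicate 1, but 0.442% of those of the heat shock regulators in replicate 2 and 1.63% in replicate 1. The value of the myosin folding group came from Smyd1, which had 127 genomic reads in replicate 2, against 1 for Unc45b. Of these 127, 126 lay on a single model that overlaps Smyd1 by 3 nt.

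**Figure D3:**
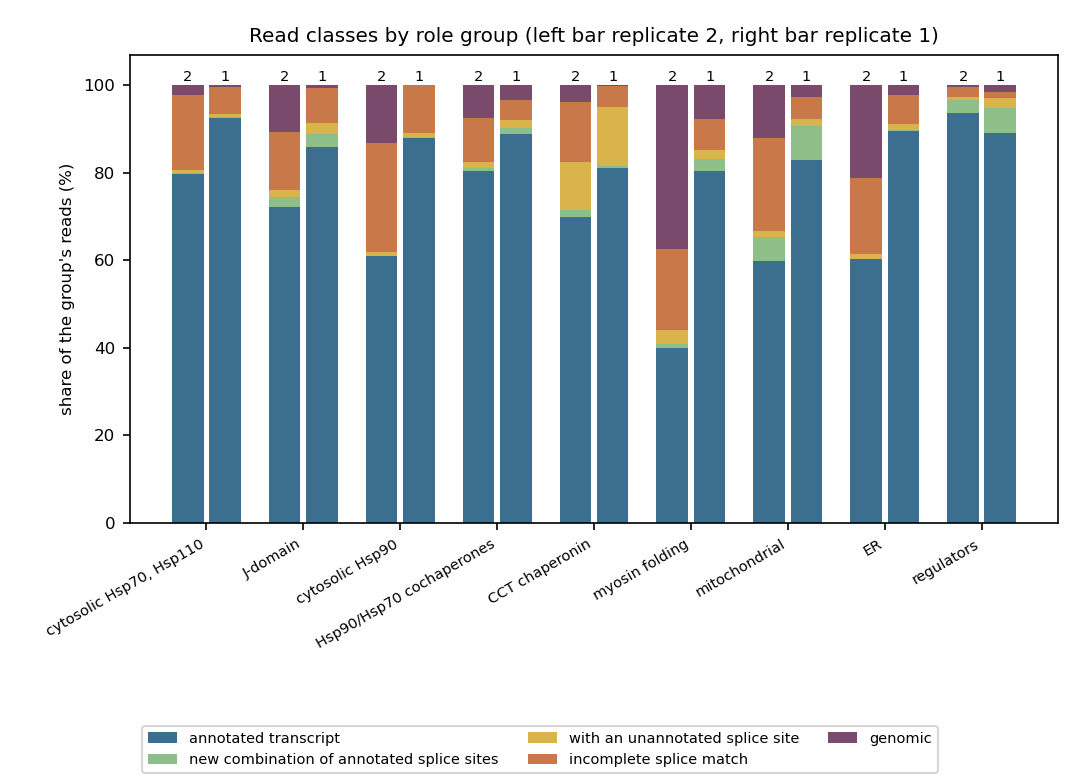
Share of each role group's reads in the 5 read classes, with replicate 2 as the left bar and replicate 1 as the right bar of each pair. Reads on annotated transcripts fall to 39.9% in the myosin folding group of replicate 2, against 80.3% in replicate 1, and stay at 93.6% in replicate 2 and 89.0% in replicate 1 for the heat shock regulators. The genomic reads of the myosin folding group in replicate 2 were 127 from Smyd1 and 1 from Unc45b.

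The libraries also differed in markers of other cell types. The 6 summed markers of fibroblasts, mostly collagens and other matrix genes, were 923 CPM in replicate 2 and 4593 in replicate 1, and those of Schwann cells were 505 CPM in replicate 2 and 149 in replicate 1. Skeletal muscle markers, with all 6 detected, summed to 250499 CPM in replicate 2 and 358467 in replicate 1. Without Atp2a1 (23536 CPM in replicate 2 and 151516 in replicate 1) the other 5 summed to 226963 CPM in replicate 2 and 206951 in replicate 1. The markers of red blood cells summed to 638 CPM in replicate 2 and 393 in replicate 1, and those of endothelium, immune cells, fat and heart to at most 72.9 CPM in either library. Of the 5 heart markers, 2 (Nppa and Myl7) were at 0 in both libraries. The part of these cell types in the members' values was not tested.

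Among the cytosolic Hsp70 proteins, Hspa8 alone carried most reads, 1056 of 1086 in replicate 2 and 993 of 1042 in replicate 1. It had 1056 reads (681 CPM) in replicate 2 and 993 reads (817 CPM) in replicate 1 and ranked 131 among all genes by mean CPM. Its log2 ratio of -0.26 (counting SE 0.064) passed the exact test as lower (adjusted p = 0.000226), but it turned to 0.03 with TMM and 0.06 with DESeq2 size factors, so no direction can be given. The stress-inducible pair was near the floor: Hspa1a had 4 reads in replicate 2 against 14 in replicate 1, while Hspa1b had 2 reads in each. These 2 genes are 99.2% identical over 2201 nt, so their split is uncertain. Reads of Hspa8 outnumbered those of Hspa1a and Hspa1b together 176-fold in replicate 2 and 62.1-fold in replicate 1, and 214-fold and 76.4-fold per kb in the same order.

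The pseudogene Gm15459 was assigned almost as many reads as Hspa8. It had 961 reads (620 CPM) in replicate 2 and 849 reads (698 CPM) in replicate 1, every one of them on its annotated unspliced model. That was 47.6% (95% exact interval 45.4 to 49.9) of the reads of the pair in replicate 2 and 46.1% (43.8 to 48.4) in replicate 1, and these intervals overlap. With these reads added to Hspa8, the sum was 1302 CPM in replicate 2 and 1515 CPM in replicate 1 (1408 ± 151). Whether the reads came from the pseudogene or from Hspa8 was not tested, so the level of Hspa8 is uncertain between these values.

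Annotated copies of at least 90% identity over at least 50% of the main transcript existed for 9 members, 18 copies in all. Apart from Gm15459 and the Hspa1a and Hspa1b pair, these had at most 6 reads in a library. Hsp90aa1 is 99.5% identical to the pseudogene Gm12346 and Hspd1 is 99.0% identical to Hspd1-ps3, and both pseudogenes had 0 reads in both libraries.

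The remaining Hsp70 genes were low. Hspa1l, known from testis, had 7.10 CPM in replicate 2 and 14.8 in replicate 1, and Hspa2, another testis-enriched Hsp70, had 6.45 in replicate 2 and 12.3 in replicate 1. Neither passed the test, though Hspa1l was lower without the partial classes (log2 ratio -1.44, adjusted exact p = 0.047). The Hsp110 proteins exchange the nucleotide of Hsp70. Hspa4 had 49 reads (31.6 CPM) in replicate 2 and 73 reads (60.0 CPM) in replicate 1, and Hsph1 had 20 reads (12.9 CPM) in replicate 2 and 43 reads (35.4 CPM) in replicate 1. Both were lower, by log2 ratios of -0.90 (SE 0.27, adjusted exact p = 0.00189) and -1.39 (SE 0.39, adjusted exact p = 0.000523). Of the 6 tested genes of this group, 4 were lower and 5 lay below the median ratio of all genes. Of all genes tested, 26.3% were lower. The 4 were Hspa1a, Hspa8, Hspa4 and Hsph1. The ratio of Hspa8 turned positive with TMM, and Hspa1a did not pass without the partial classes (adjusted exact p = 0.0526). Hspa4 did not pass with DESeq2 size factors (adjusted exact p = 0.0559).

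Among the 8 J-domain proteins, which pass clients to Hsp70, Dnaja2 was the highest in CPM and in CPM per kb, with 127 CPM in replicate 2 and 205 in replicate 1. Dnaja4 had 68.4 CPM in replicate 2 and 131 in replicate 1. Its close relative Dnaja1 had 35.5 CPM in replicate 2 and 39.5 in replicate 1, so Dnaja4 exceeded Dnaja1 1.93-fold in replicate 2 and 3.31-fold in replicate 1, or 2.17-fold and 3.72-fold per kb in the same order. Dnajb5 had 45.8 CPM in replicate 2 and 96.2 in replicate 1. Dnaja2, Dnaja4 and Dnajb5 were lower in replicate 2, with log2 ratios of -0.68, -0.93 and -1.05, and the other 5 did not pass. Dnajb2 was lower without the partial classes (log2 ratio -1.04, adjusted exact p = 0.00801), and 35 of its 69 reads in replicate 2 lay on a single-exon genomic model with 0 reads in replicate 1. Dnajb6, in which mutations cause a human limb-girdle muscular dystrophy, had 57.4 CPM in replicate 2 and 74.8 in replicate 1. Dnajb2 had 44.5 CPM in replicate 2 and 49.4 in replicate 1, and Dnajb4 had 15.5 and 15.6 in the same order. The heat-inducible Dnajb1 had 8 reads in replicate 2 and 7 in replicate 1.

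Both cytosolic Hsp90 genes were lower in replicate 2, with all read classes and without the partial ones. Hsp90ab1 had 630 reads (407 CPM) in replicate 2 and 861 reads (708 CPM) in replicate 1, a log2 ratio of -0.80 (SE 0.076, adjusted exact p = 4.01e-25). The stress-inducible Hsp90aa1 had 11 reads (7.10 CPM) in replicate 2 and 26 reads (21.4 CPM) in replicate 1, a log2 ratio of -1.47 (SE 0.52, adjusted exact p = 0.00493). The constitutive gene thus exceeded the inducible gene 57.3-fold in replicate 2 and 33.1-fold in replicate 1, and 74.6-fold and 43.1-fold per kb in the same order. Of the Hsp90ab1 reads in replicate 2, 83 lay on a genomic model listed with a single base inside the gene, a model with 0 reads in replicate 1. Neither call held with an assumed coefficient of variation of 0.2.

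Of the role groups, the cochaperones differed least between the libraries in summed CPM. Bag1, a nucleotide exchange factor of Hsp70, had 400 reads (258 CPM) in replicate 2 and 233 reads (192 CPM) in replicate 1 and was higher (log2 ratio 0.43, SE 0.12, adjusted exact p = 0.00111). Fkbp4 and Fkbp5 are Hsp90-bound prolyl isomerases that act on steroid receptors. Fkbp4 had 123 CPM in replicate 2 and 163 in replicate 1, and was lower with a log2 ratio of -0.40, a call lost with TMM (-0.11) and DESeq2 size factors (-0.084). Fkbp5, which glucocorticoids induce, had 22 reads in replicate 2 against 39 in replicate 1 and was lower (log2 ratio -1.12, adjusted exact p = 0.00615), a call lost with TMM (log2 ratio -0.84). None of the replicate 2 reads of Fkbp5 was on its annotated transcript Fkbp5-201, which had 20 reads in replicate 1; 19 of the 22 lay on a single-exon model of 133 nt.

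The other 5 cochaperones did not pass with all read classes. Cdc37, which brings kinases to Hsp90, had 127 CPM in replicate 2 and 152 in replicate 1, and was lower without the partial classes (log2 ratio -0.49, adjusted exact p = 0.00929). Ahsa1, an activator of the Hsp90 ATPase, had 108 CPM in replicate 2 and 86.4 in replicate 1, and was higher without the partial classes (log2 ratio 0.46, adjusted exact p = 0.026) and with TMM (0.61). Stip1, which links Hsp70 to Hsp90, had 64.5 CPM in replicate 2 and 72.4 in replicate 1, and St13, an Hsp70-binding protein, had 51.6 and 55.1 in the same order. Ptges3, the p23 cochaperone, had 38.1 CPM in replicate 2 and 31.3 in replicate 1. Ptges3 also had 97 reads in replicate 2 and 2 in replicate 1 on models of the opposite strand, against 59 and 38 on its own strand.

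The 8 CCT genes encode the 8 different subunits of a double ring with equal numbers of each. Their levels were close to each other: the highest exceeded the lowest 2.44-fold in replicate 2 and 2.45-fold in replicate 1, with a coefficient of variation over the 8 genes of 30.1% in replicate 2 and 34.4% in replicate 1. Per kb, Cct5 was highest with 76.6 CPM per kb in replicate 2 and 97.7 in replicate 1. The lowest were Cct2 with 29.6 CPM per kb in replicate 2 and Cct3 with 39.5 in replicate 1. Tcp1 had 199 reads (128 CPM) in replicate 2 and 128 reads (105 CPM) in replicate 1, and Cct8 had 196 reads (126 CPM) in replicate 2 and 125 reads (103 CPM) in replicate 1. Cct4 had 100.02 CPM in replicate 2 and 126 in replicate 1, Cct2 had 58.1 in replicate 2 and 79.0 in replicate 1, and Cct3 had 61.3 in replicate 2 and 78.1 in replicate 1. Cct5 and Cct7 were lower in replicate 2 (log2 ratios -0.35 and -0.52), and the other 6 did not pass. With TMM scaling Cct5 and Cct7 no longer passed and Tcp1 and Cct8 passed as higher, at log2 ratios of 0.57 and 0.59, while on annotated transcripts alone both ratios were below 0 and did not pass.

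**Figure D4:**
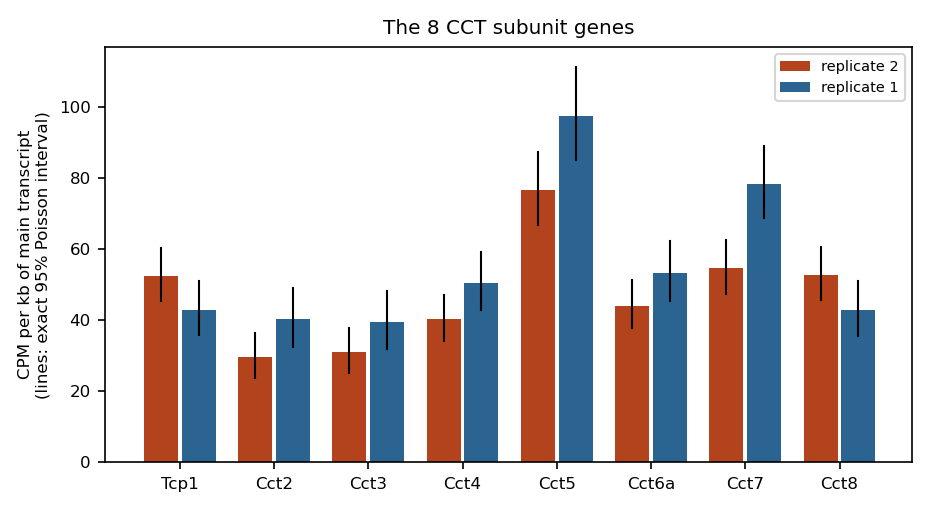
CPM per kb of main transcript for the 8 CCT subunit genes, with replicate 2 on the left and replicate 1 on the right of each pair and exact 95% Poisson intervals as lines. Cct5 is highest in both libraries, at 76.6 in replicate 2 and 97.7 in replicate 1; for Cct6a the length is that of Cct6a-202, the annotated transcript that shares most introns with its reads.

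Cct6a stood apart by its transcript structure. The annotation used for counting (GENCODE M21) lists 7 transcripts for it, 0 of them protein-coding. A 13-exon splice chain that is none of these had 117 of 168 Cct6a reads (69.6%, 95% exact interval 62.1 to 76.5) in replicate 2 and 141 of 159 (88.7%, 82.7 to 93.2) in replicate 1. Relative to Cct6a-202, it differs at a single intron of 50376 nt. The exon before this intron (chr5:129794352-129794560, 209 nt) is 61 nt longer than annotated, and the exon after it (chr5:129844937-129845072, 136 nt) is 33 nt longer, 94 nt in all. Every other splice junction of the chain is that of Cct6a-202. The chain was the main source of reads with an unannotated splice site in the chaperonin group, which were 10.9% of its reads in replicate 2 and 13.6% in replicate 1.

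The myosin folding factors had the lowest ratio of summed CPM of the 9 role groups, with 220 CPM in replicate 2 and 522 in replicate 1. Unc45b, the muscle-specific myosin chaperone, had 135 reads (87.1 CPM) in replicate 2 and 312 reads (257 CPM) in replicate 1. Its log2 ratio of -1.55 (SE 0.15, adjusted exact p = 8.97e-27) also passed with an assumed coefficient of variation of 0.2 (edgeR's exact test, adjusted p = 0.00787). Reads of the 4 adult sarcomeric myosin heavy chain genes counted here (Myh1, Myh2, Myh4 and Myh7) numbered 17282 in replicate 2 and 37663 in replicate 1, so Unc45b had 7.81 reads per 1000 myosin reads in replicate 2 and 8.28 in replicate 1. The general form Unc45a had 5 reads in replicate 2 against 10 in replicate 1, and Unc45b exceeded it 27.0-fold in replicate 2 and 31.2-fold in replicate 1, or 24.8-fold and 28.7-fold per kb in the same order.

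Smyd1 had 201 reads (130 CPM) in replicate 2 and 313 reads (257 CPM) in replicate 1, a log2 ratio of -0.98 (SE 0.13, adjusted exact p = 2.46e-13). Per 1000 myosin reads this was 11.6 in replicate 2 and 8.31 in replicate 1. However, 126 of the 201 reads of replicate 2 lay on a single-exon genomic model at chr6:71212926-71213942, which overlaps the annotated gene by 3 nt at its 3′ end. Replicate 1 had 44 reads on a model of those 3 nt. Without the genomic and incomplete classes the log2 ratio of Smyd1 was -2.11. Unc45b had no model of this kind; 30 of its replicate 2 reads lay on a single-exon model of 913 nt within the gene, and its ratio without those classes was -1.89.

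The mitochondrial Hsp60 and Hsp10 form a single folding chamber. The promoters of their genes overlap in the region shown above, for the Hspd1 start site 216 nt from that of Hspe1. Hspe1 had 249 reads (161 CPM) in replicate 2 and 77 reads (63.3 CPM) in replicate 1, and was higher with a log2 ratio of 1.33 (SE 0.19, adjusted exact p = 4.54e-13). Hspd1 had 315 reads (203 CPM) in replicate 2 and 293 reads (241 CPM) in replicate 1, and did not pass (log2 ratio -0.24). Of its reads, 105 in replicate 2 and 11 in replicate 1 lay on a single-exon model of 606 nt, and without the partial classes Hspd1 was lower (log2 ratio -0.66, adjusted exact p = 5.34e-06). The ratio of Hspe1 to Hspd1 reads was 0.79 in replicate 2 and 0.263 in replicate 1, and 2.47 in replicate 2 and 0.823 in replicate 1 per kb. The main transcripts are 774 nt for Hspe1 and 2423 nt for Hspd1, and shorter transcripts were higher in replicate 2 over all genes. Hspa9, the mitochondrial Hsp70, had 274 CPM in replicate 2 and 316 in replicate 1 and did not pass with all classes, but 121 of its 424 replicate 2 reads lay on a genomic model listed with a single base inside the gene and 67 more on a 980-nt single-exon model, and without the partial classes it was lower (log2 ratio -0.87). Dnaja3, the mitochondrial J-domain protein, had 99 reads (63.9 CPM) in replicate 2 and 185 reads (152 CPM) in replicate 1, and was lower with a log2 ratio of -1.24 (SE 0.18, adjusted exact p = 1.06e-11).

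In the ER, Hspa5 (BiP), the Hsp70 of the lumen, led with 296 reads (191 CPM) in replicate 2 and 300 reads (247 CPM) in replicate 1. It was lower with a log2 ratio of -0.37 (adjusted exact p = 0.0064), a call lost with TMM (log2 ratio -0.08). Of its reads, 85 in replicate 2 and 8 in replicate 1 lay on a single-exon genomic model of 917 nt. Hspa8 exceeded Hspa5 by 3.57-fold in replicate 2 and 3.31-fold in replicate 1, or 5.47-fold and 5.08-fold per kb in the same order. P4hb, a protein disulfide isomerase, had 139 reads (89.7 CPM) in replicate 2 and 263 reads (216 CPM) in replicate 1 and was lower with a log2 ratio of -1.26 (SE 0.15, adjusted exact p = 1.15e-16). Canx, the membrane-bound lectin chaperone calnexin, had 26 reads in replicate 2 against 50 in replicate 1 and was lower (log2 ratio -1.24, adjusted exact p = 0.000771). Calr, its soluble relative calreticulin, had 57 reads in replicate 2 against 37 in replicate 1, while Pdia3, the isomerase that works with both, had 31 in each; neither passed. On annotated transcripts alone Calr was lower, with a log2 ratio of -1.12 (adjusted exact p = 0.0214).

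Hsp90b1, the Hsp90 of the ER, had 91 reads (58.7 CPM) in replicate 2 and 56 reads (46.1 CPM) in replicate 1 and did not pass (log2 ratio 0.34). Of these, 12 in replicate 2 and 31 in replicate 1 were on the full annotated transcript, and 63 in replicate 2 and 17 in replicate 1 were incomplete matches of 2 exons at its 3′ end. Without the partial classes Hsp90b1 was lower, with a log2 ratio of -1.32 (adjusted exact p = 0.00546). The cytosolic Hsp90 pair outnumbered Hsp90b1 7.04-fold in replicate 2 and 15.8-fold in replicate 1, and 7.87-fold and 17.6-fold per kb in the same order.

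Of the regulators, Hsf1, the main heat shock transcription factor, had 75 reads (48.4 CPM) in replicate 2 and 87 reads (71.6 CPM) in replicate 1 and was lower (log2 ratio -0.55, adjusted exact p = 0.0346). This call was lost with TMM and without the partial classes. Hsbp1, a small coiled-coil protein that binds Hsf1, had 377 reads (243 CPM) in replicate 2 and 159 reads (131 CPM) in replicate 1 and was higher (log2 ratio 0.89, SE 0.14, adjusted exact p = 1.32e-10). Hsbp1 has a main transcript of 1208 nt and is among the shortest members.

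Most members used mainly a single annotated transcript. The share of the most read annotated transcript, over reads outside the incomplete and genomic classes, could be tested in 35 members with 20 or more such reads per library. Averaged over the libraries it was over 90% in 25 of them, with a median of 96.4%. Of all 3019 genes tested, 1650 were over 90%, with a median of 91.7%. By Fisher's exact test adjusted over those 3019 genes, 0 of the 35 members differed between the libraries, where 1.92% of all genes did; 4 members had an unadjusted p under 0.05. The smallest adjusted exact p was 0.0641, for Cct8, with 141 of 152 reads on Cct8-201 in replicate 2 and 122 of 122 in replicate 1. With a minimum of 50 reads per library Cct8 passed (adjusted exact p = 0.0434).

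Several members used a mixture of transcripts. Smyd1 reads with the 39-nt exon (Smyd1-201) were 36 of 63 in replicate 2 (57.1%, 95% exact interval 44.05 to 69.5) and 112 of 247 in replicate 1 (45.3%, 39.0 to 51.8), among reads of Smyd1-201 and the exon-skipped Smyd1-202. Hsf1-205, with the 66-nt exon, had 47 reads in replicate 2 and 53 in replicate 1, against 4 and 10 for Hsf1-201, which lacks it. Dnaja3-201 made up 21.3% of Dnaja3-201 and Dnaja3-202 reads in replicate 2 and 20.9% in replicate 1. Hspd1 reads with the shorter form of its first exon, whose splice donor lies 210 nt from that of the longer form, were 29.8% in replicate 2 and 25.7% in replicate 1. Dnajb6-201 was 80.3% in replicate 2 and 90.3% in replicate 1 of its reads with Dnajb6-203, a shorter coding transcript. Hspa5-201 was 80.2% in replicate 2 and 70.8% in replicate 1 of its reads with Hspa5-202. The most read Dnajb5 transcript, Dnajb5-206, is annotated as a retained intron and had 31 reads in replicate 2 and 60 in replicate 1, against 6 and 27 for the coding Dnajb5-203. In Dnajb2, reads were spread over several transcripts, and Dnajb2-207 held 48.0% in replicate 2 and 38.3% in replicate 1. Dnajb4 had too few reads for the test: Dnajb4-202 had 4 reads in replicate 2 and 11 in replicate 1, against 10 and 2 for Dnajb4-204.

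**Figure D5:**
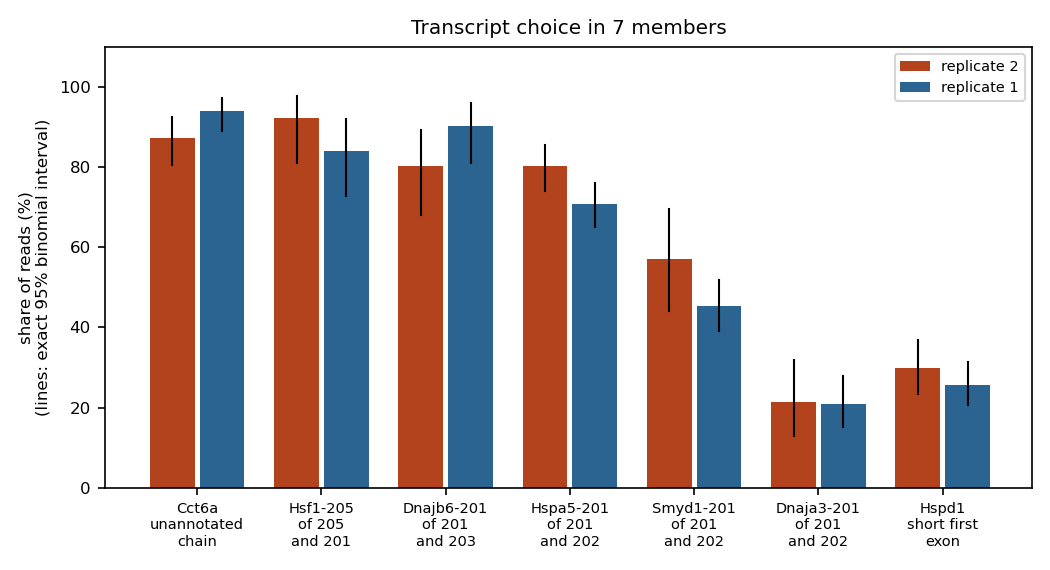
Share of reads in percent for transcript choices in 7 members, with replicate 2 on the left, replicate 1 on the right and exact 95% binomial intervals as lines. The unannotated Cct6a chain holds 87.3% of spliced full-class reads in replicate 2 and 94.0% in replicate 1; Smyd1-201 is near the middle at 57.1% in replicate 2 and 45.3% in replicate 1.

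In all, 39 unannotated splice chains in 22 of the 49 genes had reads in both libraries. After the Cct6a chain the most read was an Hspd1 chain with 56 reads in replicate 2 and 69 in replicate 1, which combines the shorter first exon with the remaining introns of Hspd1-201. A second Cct6a chain had 10 reads in replicate 2 and 8 in replicate 1. The rest had at most 11 reads over both libraries.

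The other folding genes of the same pathways, 121 genes in 7 lists, gave 19 higher, 29 lower and 60 not past the threshold among 108 tested. Over all genes tested, 17.0% were higher and 26.3% lower. The part of transcript length in the counts of these lists was not tested. In the prefoldin and chaperonin partner list, 6 of 13 tested genes were higher and 0 lower. Prefoldin hands actin and tubulin to CCT, and its subunit Pfdn1 had 245 CPM in replicate 2 and 129 in replicate 1. Pfdn5 had 125 CPM in replicate 2 and 58.4 in replicate 1, Vbp1 had 64.5 and 61.7, and Pfdn2 had 67.1 and 51.0 in the same order. In the list of myosin and its assembly partners, 1 of 14 was higher and 11 lower. Myh4, the fast 2B myosin heavy chain, had 9831 CPM in replicate 2 and 23867 in replicate 1, and Mybpc2, the fast myosin-binding protein C, had 1793 in replicate 2 and 7112 in replicate 1. Myh1 had 779 CPM in replicate 2 and 5091 in replicate 1. The exception was Apobec2, a cytidine deaminase family member that binds Unc45b in zebrafish, with 4941 CPM in replicate 2 and 782 in replicate 1.

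Among the mitochondrial folding genes outside the 49, 4 of 14 were higher and 5 lower. Dnajc19 (249 CPM in replicate 2 and 96.2 in replicate 1) and Grpel1, a nucleotide exchange factor of Hspa9 (219 in replicate 2 and 123 in replicate 1), were higher. The proteases Lonp1 (79.4 in replicate 2 and 159 in replicate 1) and Afg3l2 (40.0 in replicate 2 and 170 in replicate 1) were lower. Of the 26 further ER folding genes tested, 5 were higher and 5 lower, and the 4 with the highest mean CPM, Serpinh1, Xbp1, Dnajb11 and Pdia6, did not pass. The further Hsp90 cochaperones gave 2 higher and 3 lower of 19, with Nudc and Itgb1bp2 higher and Sgta and Fkbp8 lower among the 4 with the highest mean CPM. Itgb1bp2 (melusin) is a striated muscle partner of Hsp90 and had 112 CPM in replicate 2 and 76.5 in replicate 1. The further Hsp70 partners gave 1 higher and 5 lower of 20, with the ubiquitin ligase Stub1 higher, Dnajb12 and Bag6 lower, and Dnajc8 (71.0 CPM in replicate 2 and 68.3 in replicate 1) not past the threshold among the 4 with the highest mean CPM. Of the other heat shock factors, Hsf2 had 18 reads in replicate 2 against 9 in replicate 1, Hsf4 had 8 and 9 in the same order, and Hsf5 had 0 in both.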

How the data were processed

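Raw read counts per transcript model were deposited by the authors for each library; per the file headers they are in TALON's format, with GENCODE M21 on mm10 named by the accompanying notes, and each library was processed separately. No source used here names the aligner or read filters. Counts of all transcript classes were summed per gene name. CPM used reads in annotated genes without spike-ins (total reads 1703457 in replicate 2 and 1292409 in replicate 1). Tests were two-sided Fisher's exact tests (scipy 1.17.1) with Benjamini-Hochberg adjustment over all genes tested, on genes with 10 or more reads, or 20 per library for transcript shares, for which adjustment over the members alone had been planned. Intervals, floors and the p-values of Fisher's exact tests cover counting error only, not the spread between animals. The 49 members and all lists were chosen with earlier results of these data known. All members are named; of other lists the 4 highest by mean CPM. Copies were found with blastn 2.17.0. Alternatives used edgeR 4.0.16 and DESeq2 1.42.0 scaling in R 4.3.3. The gene test was tested on data simulated with counting error alone, without spread between animals or a dependence on transcript length.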

Additional observations from a re-analysis of the deposited data

How the results depend on the processing

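No paired analysis was possible because there is 1 group. Members higher in replicate 2 numbered 3, and 7 with TMM or DESeq2 scaling, 1 at a fixed coefficient of variation of 0.2 and 0 at 0.4. Members lower numbered 20, then 13 with TMM, 12 with DESeq2, 31 on annotated transcripts alone, 3 at 0.2 and 0 at 0.4 (in both directions 0 also at an unadjusted p under 0.05 for 0.4). Over all genes, 1480 were higher, and 1953 with TMM, 1995 with DESeq2, 863 on annotated transcripts alone, 520 at 0.2 and 6 at 0.4; 2286 were lower, and 1600, 1540, 2429, 825 and 2 under the same settings. The members' median log2 ratio of -0.35 moved to -0.058 with TMM, -0.032 with DESeq2 and -0.89 on annotated transcripts alone. The median of all genes, -0.27, moved to -0.023, 0.0017 and -0.58 under the same settings. The sign of the log2 ratio turned in 11 members with TMM and with DESeq2, in 4 on annotated transcripts alone and in 3 without partial classes. It did so with a call on either side of the turn for Hspa8 (0.031 with TMM, 0.056 with DESeq2), Hsp90b1 (-1.73 on annotated transcripts alone, -1.32 without partial classes, -1.33 with classes taken from either library) and Calr (-1.12 on annotated transcripts alone). Pseudocounts of 0.1 and 10 enter only the log2 ratio and not the exact test, so they could not change a call.

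Mean CPM on annotated transcripts alone moved to 1089 for cytosolic Hsp70 and Hsp110 (849 with all classes), 976 for cochaperones (785), 1036 for CCT (926) and 330 for regulators (247). Cochaperones were 825 without partial classes, 815 with classes from either library and 789 with TMM. Adding Gm15459, chosen after seeing the data, gave 1508 for cytosolic Hsp70 and Hsp110 and 6.47 for Hspa8 over Hspa5. Geometric mean ratios moved as follows: Unc45b over Unc45a from 29.0 to 96.9 on annotated transcripts alone and 36.3 without partial classes under either class rule. Hspa8 over Hspa5 moved from 3.44 to 3.74 on annotated transcripts alone, 3.76 without partial classes and 5.27 per kb. Cytosolic Hsp90 over Hsp90b1 moved from 10.6 to 28.6 on annotated transcripts alone and 26.0 without partial classes. Hspe1 over Hspd1 moved from 0.456 to 1.43 per kb. The highest over lowest CCT subunit was 2.45, 2.51 without partial classes and 2.53 per kb.

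Members with a differing main transcript share numbered 0 of 35, then 1 of 29 with 50 reads per library and 20 of 40 with all classes as denominator. All genes gave 58 of 3019, and 51 of 1488 with 50 reads per library. With annotated transcripts alone as denominator they gave 38 of 2704, and with all classes 1012 of 3772. The members' median share of 96.4% was 100% and 75.7% under those denominators. Leaving out a library gave 95.5 to 96.6%. The cause of these shifts was not tested. Hspa1b and Hspa12a had too few reads for the gene test. Ratios over Unc45a rest on 5 of its reads in replicate 2 and 10 in replicate 1 (on annotated transcripts alone 1 and 2), and those over Hspa1a and Hspa1b are as thinly based.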

Other observations

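Models on the strand opposite to a member overlapped 25 of the 49 genes, with 299 reads in replicate 2 and 77 in replicate 1. The highest after Ptges3 was Smyd1, with 62 in replicate 2 and 24 in replicate 1, and St13 had 21 in replicate 2 and 7 in replicate 1. Over the whole series, antisense models held 88398 reads in replicate 2 and 21649 in replicate 1.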
